A study of Homo sapiens with 12 samples.

Results

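The CDK inhibitor genes were followed by bulk RNA sequencing in HL-60 cells, a line from a human promyelocytic leukaemia. They are CDKN1A, CDKN1B, CDKN1C, CDKN2A, CDKN2B, CDKN2C, CDKN2D and CDKN3, taken by an exact match of the gene symbol in both deposited tables. All 8 were found, among 60660 genes with values in the overexpression table and 60662 in the knockout table. The overexpressing group was HL-60 transduced with a JMJD3-expression vector, and its control, called vector, was HL-60 transduced with a control vector. The other pair was JMJD3 knockout HL-60 and parental HL-60, and each of the 4 groups had 3 libraries. KDM6B encodes JMJD3, a demethylase of the Polycomb mark H3K27me3. The comparisons ask how transcripts differ with a gain and with a loss of JMJD3. The sources used here do not give the promoter of the expression vector, the site of the edit in the knockout, or whether the knockout is a single clone. Nothing in the labels ties replicates to separate cultures, and the p-values then speak only of the spread among these libraries, which may be technical.

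The products of these genes hold back the cyclin-dependent kinases that drive the cell cycle. The INK4 proteins p16 (CDKN2A), p15 (CDKN2B), p18 (CDKN2C) and p19 (CDKN2D) bind CDK4 and CDK6 and keep them from cyclin D, whereas the CIP/KIP proteins p21 (CDKN1A), p27 (CDKN1B) and p57 (CDKN1C) bind complexes of cyclins with CDKs. CDKN2A also encodes ARF, which acts on MDM2, from another first exon, and CDKN3 encodes a phosphatase that acts on CDK2. The INK4 genes on chromosome 9 are known targets of Polycomb proteins and of JMJD3, and p21 is a classic product of myeloid differentiation of HL-60.

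The libraries held 26861304 to 39031314 expected counts in the overexpression table and 28563546 to 43647715 in the knockout table. Replicates 1 and 2 lay close together in the overexpressing cells (chi-square of 1.67 per gene, where 1 is counting noise) and in the vector controls (1.95), while replicate 3 lay far from both (30.6 to 39.6). KDM6B, the check of the labels, had 2869, 3336 and 3481 counts in the JMJD3-overexpressing libraries and 893, 1031 and 907 in the vector libraries, a log2 fold change of 1.57 ± 0.148 (SE; edgeR quasi-likelihood test, adjusted p = 0.000129). It had 1083, 1534 and 1051 counts in the knockout libraries and 2092, 1973 and 2603 in the parental libraries (-0.53 ± 0.070, adjusted p = 2.44e-05). The libraries labelled as knockout thus still held KDM6B transcript, and on log2(FPKM + 1) values its difference there had an adjusted p of 0.212 by limma. Protein was not measured in these data.

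The cells carried the promyelocyte markers of HL-60, with MPO at 8608 CPM in overexpressing and 17828 CPM in vector cells, and at 8725 CPM in knockout and 10609 CPM in parental cells. CPM (reads per library scaled to a fixed total) are here scaled by TMM within a table. ELANE, another marker on that list, was near 0 in every group. The 7 promyelocyte markers summed to 8752 to 9657 CPM in overexpressing libraries and 16732 to 20889 CPM in vector libraries, and 4 of 6 tested were called lower. The 6 markers of mature myeloid cells summed to 254 to 265 CPM in overexpressing libraries and 44.4 to 59.1 CPM in vector libraries, and all 4 tested were called higher (ITGAM, CSF3R, CR1 and CYBB), while CD14 and FCGR3B did not pass the filter. Of all genes tested on overexpression, 23.9% were called lower and 26.4% higher. In the knockout table the mature markers summed to 55.2 to 62.7 CPM in knockout libraries and 67.6 to 74.1 CPM in parental libraries. The 7 promyelocyte markers summed to 9465 to 10172 CPM in knockout libraries and 11364 to 11865 CPM in parental libraries. Of 5 epithelial, fibroblast and endothelial markers, PECAM1, which myeloid cells also express, and COL1A1 were called higher on overexpression, and the list summed to 50.6 to 51.6 CPM in overexpressing, 21.9 to 23.6 CPM in vector, 13.8 to 15.1 CPM in knockout and 18.8 to 20.5 CPM in parental libraries. Lymphoid and erythroid markers summed to at most 3.53 and 1.77 CPM in any library. These shifts accompany the CDK inhibitor values below, and their part in them was not tested. In bulk RNA, a change in the share of cells that express a gene and a change in RNA per cell cannot be told apart.

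The genes differed widely in level, as FPKM (fragments scaled by transcript length and library size, the deposited scale on which genes can be compared). In overexpressing cells CDKN2C averaged 22.9 ± 1.68 FPKM, CDKN2D 21.9 ± 2.08, CDKN3 19.7 ± 0.91, CDKN1B 15.8 ± 0.80, CDKN2A 12.4 ± 2.51, CDKN1A 5.19 ± 0.33, CDKN2B 1.98 ± 0.43 and CDKN1C 0.13 ± 0.047 (mean ± SD, n = 3). In this order CDKN2C and CDKN2D overlapped between libraries, as did CDKN2D and CDKN3, and every later step was clear of overlap. In vector cells the order of mean FPKM was CDKN2C (28.4 ± 1.76), CDKN3 (25.5 ± 2.39), CDKN2A (19.2 ± 5.01), CDKN1B (17.4 ± 1.09), CDKN2D (7.02 ± 0.16), CDKN2B (0.22 ± 0.080), CDKN1A (0.10 ± 0.11) and CDKN1C (0.050 ± 0.053). The pairs CDKN2C and CDKN3, CDKN2A and CDKN1B, CDKN2B and CDKN1A, and CDKN1A and CDKN1C overlapped there.

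CDKN3 stood at the top in knockout cells, at 43.5 ± 1.83 FPKM, followed by CDKN2C (24.4 ± 1.56), CDKN1B (16.0 ± 0.15), CDKN2A (12.4 ± 0.49), CDKN2D (10.9 ± 1.40), CDKN1A (0.74 ± 0.11) and CDKN2B (0.20 ± 0.087), with CDKN1C listed at 0 in all 3 libraries. Only the CDKN2A and CDKN2D levels overlapped between neighbours in that order. In parental cells CDKN2C led (23.1 ± 0.54 FPKM), ahead of CDKN3 (20.1 ± 1.798), CDKN1B (19.1 ± 1.13), CDKN2A (13.6 ± 1.26), CDKN2D (9.80 ± 0.97), CDKN1A (0.96 ± 0.17), CDKN2B (0.24 ± 0.17) and CDKN1C (0.095 ± 0.098). CDKN3 overlapped CDKN1B there, and CDKN2B overlapped CDKN1C.

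**Figure D1:**
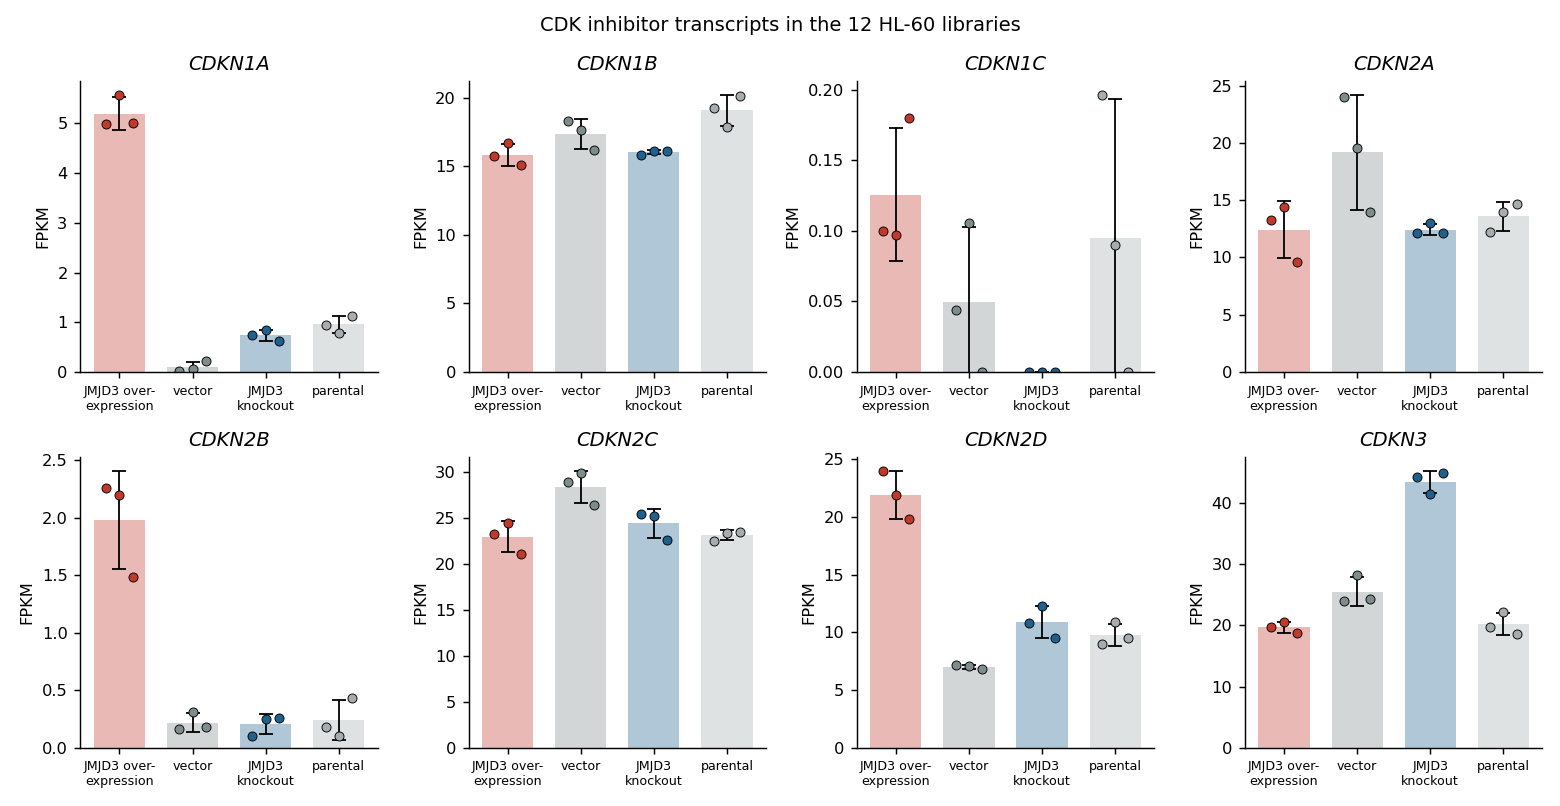
Deposited FPKM of the 8 CDK inhibitor genes (y axes, each panel on its own scale from 0) in JMJD3 overexpression, vector, JMJD3 knockout and parental cells; points are the 3 libraries, bars their mean and whiskers the SD. CDKN1A, CDKN2B and CDKN2D stand highest in overexpressing cells and CDKN3 in knockout cells.

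The 250 bases before the RefSeq start (build GRCh38.p14) are shown for the genes with the largest changes, namely CDKN1A, CDKN2B and CDKN2D, which were higher on overexpression, and CDKN3, which was higher in the knockout. Each reads 5′ to 3′ along the gene's own strand and ends at the base before the start. Capitals mark a GC box (GGGCGG, known to bind SP1 and related factors) or a CCAAT box (CCAAT, known to bind NF-Y) on either strand, so that CCGCCC and ATTGG are the same motifs read from the other strand. The windows lie at chr6:36678464-36678713 (plus strand), chr9:22009306-22009555 (minus strand), chr19:10568980-10569229 (minus strand) and chr14:54396757-54397006 (plus strand).
CDKN1A: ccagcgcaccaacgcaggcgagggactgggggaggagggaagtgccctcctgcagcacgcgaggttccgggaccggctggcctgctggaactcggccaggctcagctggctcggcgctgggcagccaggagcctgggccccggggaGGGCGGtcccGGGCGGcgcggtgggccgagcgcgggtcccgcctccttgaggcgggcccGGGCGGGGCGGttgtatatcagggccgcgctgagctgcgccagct
CDKN2B: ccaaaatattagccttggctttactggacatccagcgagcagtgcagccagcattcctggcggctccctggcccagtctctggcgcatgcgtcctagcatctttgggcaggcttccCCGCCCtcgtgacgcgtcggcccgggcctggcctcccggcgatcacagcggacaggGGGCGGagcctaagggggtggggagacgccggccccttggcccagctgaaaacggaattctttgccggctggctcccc
CDKN2D: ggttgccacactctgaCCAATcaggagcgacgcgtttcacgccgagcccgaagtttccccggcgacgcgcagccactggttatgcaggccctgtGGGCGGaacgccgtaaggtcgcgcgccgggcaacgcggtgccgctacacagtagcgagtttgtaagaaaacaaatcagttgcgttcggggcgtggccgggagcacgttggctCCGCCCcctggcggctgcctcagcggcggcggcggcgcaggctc
CDKN3: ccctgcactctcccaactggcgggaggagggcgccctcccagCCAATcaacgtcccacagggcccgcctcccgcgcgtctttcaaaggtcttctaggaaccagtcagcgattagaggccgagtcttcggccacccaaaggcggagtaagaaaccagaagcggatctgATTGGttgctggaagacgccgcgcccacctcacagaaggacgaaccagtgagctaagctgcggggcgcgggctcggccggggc

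The CDKN1A window held 4 GC boxes and no CCAAT box, and the nearest GC boxes to the start began at -45 and -40 and overlapped by 1 base. CDKN2B held 2 GC boxes, at -134 and -78. CDKN2D held 2 GC boxes, at -156 and -44, and a CCAAT box at -234. CDKN3 held no GC box but 2 CCAAT boxes, at -208 and -83, and a match at -170 to TTTGAA, the letters of the cell cycle genes homology region. Of 34943 RefSeq windows of the same length, 42.5% held a GC box, 32.0% a CCAAT box and 13.4% TTTGAA, so each motif is common. No window of the 7 genes with an entry held the exact letters TATAAA of a TATA box (in 10.8% of windows). Other forms of that box were not searched. An E-box (CACGTG, in 6.32%) was found at CDKN2C alone, in the windows of 2 of its 3 starts, and an EGR site (GCGNGGGCG, in 8.39%) at another of its starts, where it overlaps a GC box. The ratio of observed to expected CpG was 1.16 at CDKN2D, above 98.6% of windows, 1.08 at the first CDKN2A start (above 96.2%) and 1.04 at CDKN1B (above 94.5%). It was 0.76 at CDKN1A, 0.65 at CDKN2B and 0.81 at CDKN3, against a median of 0.56 over all windows. These matches describe the letters and do not show binding.

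**Figure D2:**
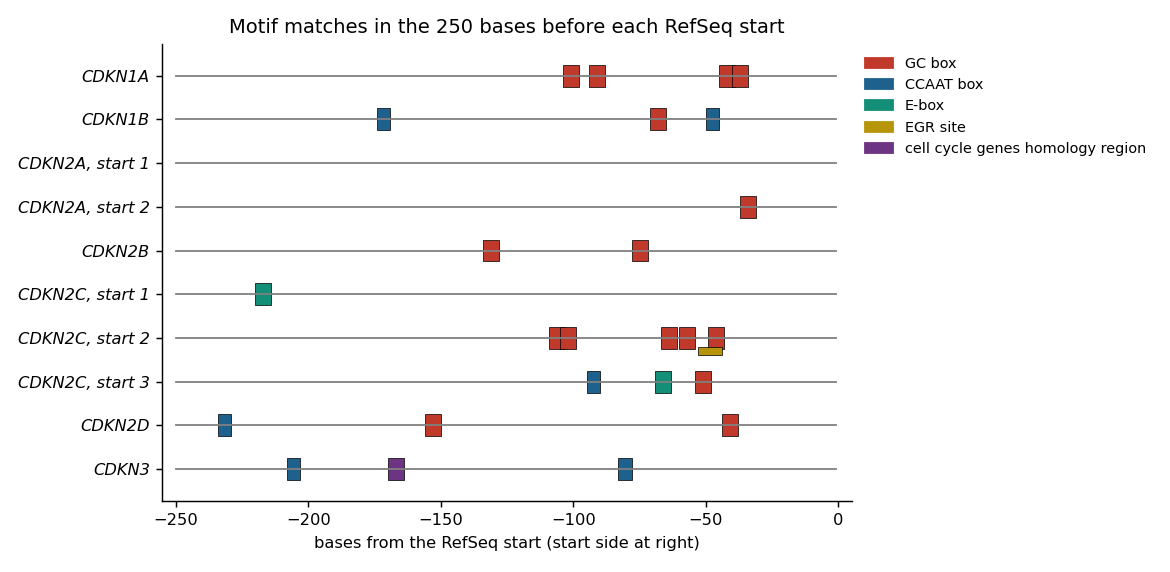
Positions of motif matches (coloured boxes, either strand) in the 250 bases before each RefSeq start of 7 CDK inhibitor genes, by distance from the start in bases. The GC boxes of CDKN1A lie between -104 and the start, and CDKN3 has CCAAT boxes and no GC box.

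JMJD3-overexpressing cells held more CDKN1A, CDKN2B and CDKN2D transcript than vector cells, by log2 fold changes of 5.56, 3.14 and 1.65, while CDKN2C and CDKN3 were slightly lower. Of the 7 genes that passed the expression filter, 3 were called higher and 2 lower at an adjusted p under 0.05. Of all 14322 genes tested, 50.3% were called, 26.4% as higher and 23.9% as lower, so a call alone was common. A rise of 1 or more on the log2 scale with a call was seen for 11.8% of genes, and a log2 fold change at or above that of CDKN1A for 0.573%. CDKN1C was the gene that did not pass the filter. The median log2 fold change of the 7 was -0.14, against -0.0031 over all genes.

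CDKN1A (ENSG00000124762, GRCh38 chromosome 6, 36676460 to 36687339, plus strand) encodes p21. It had 280, 333 and 353 counts in overexpressing libraries, against 1, 3 and 14 in vector libraries. The lowest overexpressing library lay far above the highest vector library, and 14 of the 18 vector counts came from replicate 3. CDKN1A averaged 9.33 ± 0.74 CPM in overexpressing cells and 0.17 ± 0.18 CPM in vector cells (SD, n = 3 each). The log2 fold change was 5.56 ± 0.365 (SE; 95% interval 4.84 to 6.27; edgeR, adjusted p = 2.59e-05). Without vector replicate 3 it was 6.94, and it was called under all 17 alternatives.

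CDKN2B (ENSG00000147883, chromosome 9, 22002903 to 22009363, minus strand) encodes p15, an inhibitor known to answer to TGF-beta. It had 130, 130 and 160 counts in overexpressing libraries and 10, 15 and 17 in vector libraries, with no overlap. Its means were 4.06 ± 0.33 CPM in overexpressing and 0.45 ± 0.056 CPM in vector cells, a log2 fold change of 3.14 ± 0.173 (edgeR, adjusted p = 9.75e-06). CDKN2D (ENSG00000129355, chromosome 19, 10566462 to 10569059, minus strand) encodes p19. It had 640, 678 and 709 counts in overexpressing libraries and 164, 198 and 211 in vector libraries. These groups too were clear of each other, at 19.7 ± 2.42 CPM in overexpressing and 6.30 ± 0.49 CPM in vector cells (log2 fold change 1.65 ± 0.123; edgeR, adjusted p = 4.49e-05). Both genes were called under all 17 alternatives.

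CDKN2C (ENSG00000123080, chromosome 1, 50960745 to 50974633, plus strand) encodes p18. It had 39.4, 41.9 and 33.5 CPM in overexpressing libraries and 50.9, 53.04 and 44.0 CPM in vector libraries, so the groups did not overlap. In all, 5 of the 7 genes had groups clear of each other, as had 58.9% of all genes tested. The log2 fold change was -0.37 ± 0.110 (edgeR, adjusted p = 0.0264). CDKN3 (ENSG00000100526, chromosome 14, 54396849 to 54420218, plus strand) had 11.4, 11.9 and 10.2 CPM in overexpressing libraries and 14.4, 16.5 and 12.8 CPM in vector libraries, again without overlap (-0.39 ± 0.120, adjusted p = 0.0295). Both falls were slight and rested on the scaling: with upper-quartile factors the adjusted p was 0.0793 for CDKN2C and 0.0791 for CDKN3, and with library totals alone 0.112 and 0.114. The CDKN2C call was also lost without vector replicate 1 or 2 or without overexpression replicate 1 or 3, and the CDKN3 call in every case of a library left out except vector replicate 3.

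CDKN2A (ENSG00000147889, chromosome 9, 21967753 to 21995301, minus strand), the gene of p16 and ARF, had 305, 377 and 291 counts in overexpressing libraries and 483, 477 and 371 in vector libraries. As CPM these were 10.4, 11.2 and 7.02 in overexpressing and 19.0, 16.1 and 10.1 in vector libraries, with overexpression replicates 1 and 2 above vector replicate 3. Each overexpressing library was below the vector library of the same number. The log2 fold change of -0.66 ± 0.259 was not called (edgeR, adjusted p = 0.0688). It was called lower in 4 of 17 alternatives, namely with the replicate number as a block (adjusted p 1.32e-10), with replicates 1 and 2 only (6.75e-09), with DESeq2 (0.0221) and without vector replicate 3 (-0.87, 0.00779). In the other 13 it was not called, and the adjusted p over all 17 ran up to 0.211, without vector replicate 1. In the authors' deposited table CDKN2A stands at -0.61 on the log2 scale (adjusted p 0.0118) and is not marked as significant. That mark does not follow the authors' adjusted p alone. KDM6B in the knockout, at -0.44 with an adjusted p of 1.24e-10 there, is not marked either. CDKN1B (ENSG00000111276, chromosome 12, 12715058 to 12722371, plus strand), which encodes p27, had 37.3, 39.8 and 34.7 CPM in overexpressing libraries and 44.1, 41.5 and 37.3 CPM in vector libraries. The groups overlapped, and the log2 fold change was -0.14 ± 0.091 (adjusted p = 0.245). The replicate block gave -0.13 with an adjusted p of 0.00632, and library totals alone gave 0.0061 (0.961), so its sign depended on the scaling. With the block, 4 members were called lower in place of 2, and 3 higher as before, where 73.2% of all genes were called (36.4% higher and 36.8% lower).

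CDKN1C (ENSG00000129757, chromosome 11, 2883213 to 2885773, minus strand) encodes p57 and is an imprinted gene. It had 4, 5 and 12 counts in overexpressing libraries and 2, 3 and 0 in vector libraries. At this depth it lay near the detection limit in each, and without the filter its difference had an adjusted p of 0.0858 (edgeR).

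**Figure D3:**
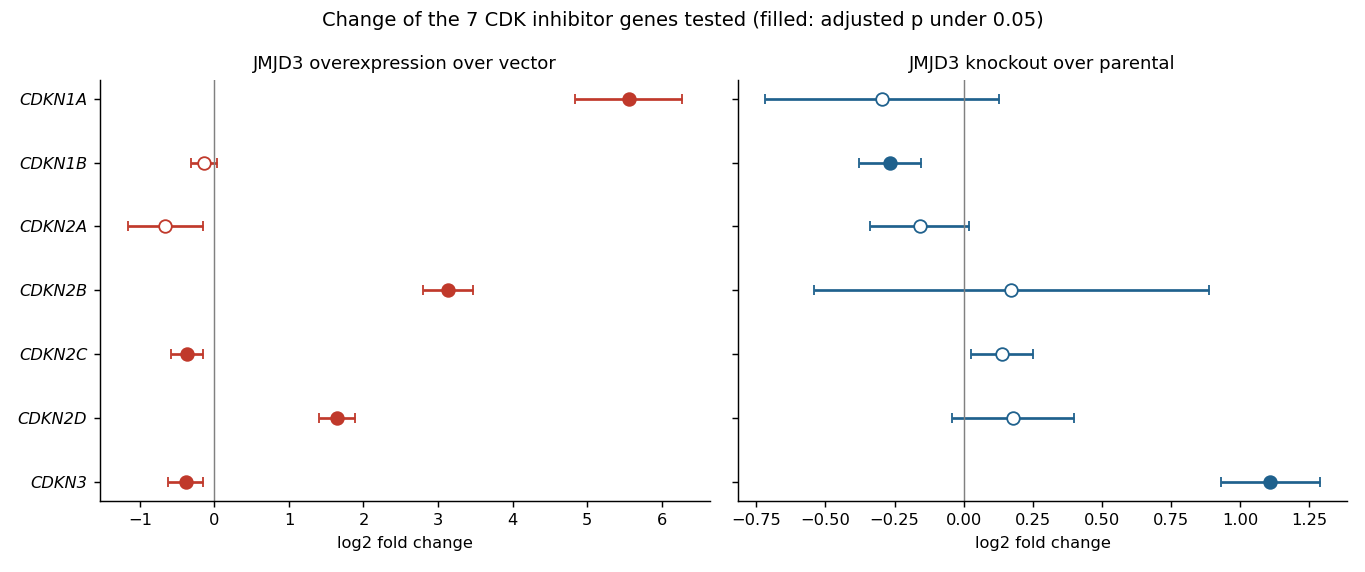
Log2 fold changes (x axes, on separate scales; points with 95% intervals from the edgeR fit) of the 7 CDK inhibitor genes tested, for JMJD3 overexpression over vector and JMJD3 knockout over parental; filled points have an adjusted p under 0.05. CDKN1A, CDKN2B and CDKN2D lie to the right in the overexpression comparison, and CDKN3 does in the knockout comparison.

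Knockout cells held 2.16-fold the CDKN3 transcript of parental cells and slightly less CDKN1B. Of the 7 genes that passed the filter, 1 was called higher and 1 lower. Of all 14186 genes tested, 37.8% were called, 17.6% as higher and 20.2% as lower. A called rise of 1 or more on the log2 scale, as CDKN3 had, was seen for 1.88% of genes. The median log2 fold change of the 7 was 0.14, against -0.0022 over all genes.

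CDKN3 had 720, 781 and 705 counts in knockout libraries and 398, 453 and 438 in parental libraries. Every knockout library lay well above every parental one, at 24.2 ± 1.00 CPM in knockout and 11.2 ± 1.58 CPM in parental cells (SD, n = 3 each). The log2 fold change was 1.11 ± 0.091 (95% interval 0.93 to 1.29; edgeR, adjusted p = 8.47e-08), and it was called under all 15 alternatives, between 1.03 and 1.23. CDKN1B had 37.4, 38.0 and 38.4 CPM in knockout libraries and 46.4, 42.6 and 47.7 CPM in parental libraries. The knockout libraries were close to one another and all below the parental ones. The log2 fold change was -0.27 ± 0.058 (adjusted p = 0.00163), called under all 15 alternatives.

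The 3 genes that were higher on overexpression did not pass the test in the knockout. CDKN1A had 42, 54 and 34 counts in knockout libraries and 68, 53 and 81 in parental libraries, which overlapped as CPM (log2 fold change -0.30, 95% interval -0.72 to 0.13; edgeR, adjusted p = 0.308). CDKN2B had 11, 21 and 20 counts in knockout libraries and 16, 13 and 30 in parental libraries (0.17, interval -0.54 to 0.89; adjusted p = 0.748). CDKN2D had 286, 382 and 247 counts in knockout libraries and 303, 342 and 370 in parental libraries (0.18, interval -0.042 to 0.40; adjusted p = 0.233). At these counts a change of CDKN2B by 0.89 on the log2 scale could not be told from none, while the CDKN2D interval ends at 0.40. CDKN2B also turned to -0.034 on log2(FPKM + 1) values. The length implied by its deposited FPKM and count ran from 1581 to 3656 bases between libraries of the knockout table, whereas that of CDKN3 ran from 540.4 to 588.0 bases.

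CDKN2A and CDKN2C were not called either. CDKN2A had 9.85, 10.4 and 9.73 CPM in knockout libraries and 10.3, 11.7 and 11.5 CPM in parental libraries, with a slight overlap (-0.16 ± 0.091; edgeR, adjusted p = 0.189). CDKN2C had 45.8, 44.5 and 40.8 CPM in knockout libraries and 39.4, 40.1 and 39.6 CPM in parental libraries (0.14 ± 0.057; adjusted p = 0.0681). The CDKN2C groups did not overlap, as was the case for 48.9% of genes tested, and without knockout replicate 3 it was called (0.19, adjusted p = 0.0309). CDKN1C had no count in any knockout library, against 8, 3 and 0 counts in parental libraries. With the floor set at 3 counts over the group, CDKN1C came to 2.91-fold lower in knockout cells. That value takes the 11 parental counts as exact and is not a lower bound. It was filtered out, and without the filter the adjusted p was 0.0356, but 1 parental library was at 0 as well.

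The summed FPKM of the 8 genes was 91.1 to 105.9 in overexpressing libraries and 88.1 to 102.8 in vector libraries, so their total overlapped while their make-up differed. CDKN2D made up 21.9 ± 1.27% of the sum in overexpressing cells and 7.21 ± 0.49% in vector cells, and CDKN1A 5.20 ± 0.34% and 0.11 ± 0.13% in the same order. CDKN3 took 19.7 ± 0.77% in overexpressing and 26.2 ± 2.38% in vector cells. In the knockout table the sum was 106.1 to 109.2 FPKM in knockout libraries and 84.0 to 89.2 FPKM in parental libraries. CDKN3 made up 40.2 ± 2.16% of it in knockout and 23.1 ± 1.85% in parental cells. The INK4 genes alone summed to 47.9 ± 3.11 FPKM in knockout and 46.7 ± 2.51 FPKM in parental cells, and the CIP/KIP genes to 16.8 ± 0.19 and 20.1 ± 1.27 FPKM in the same order.

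**Figure D4:**
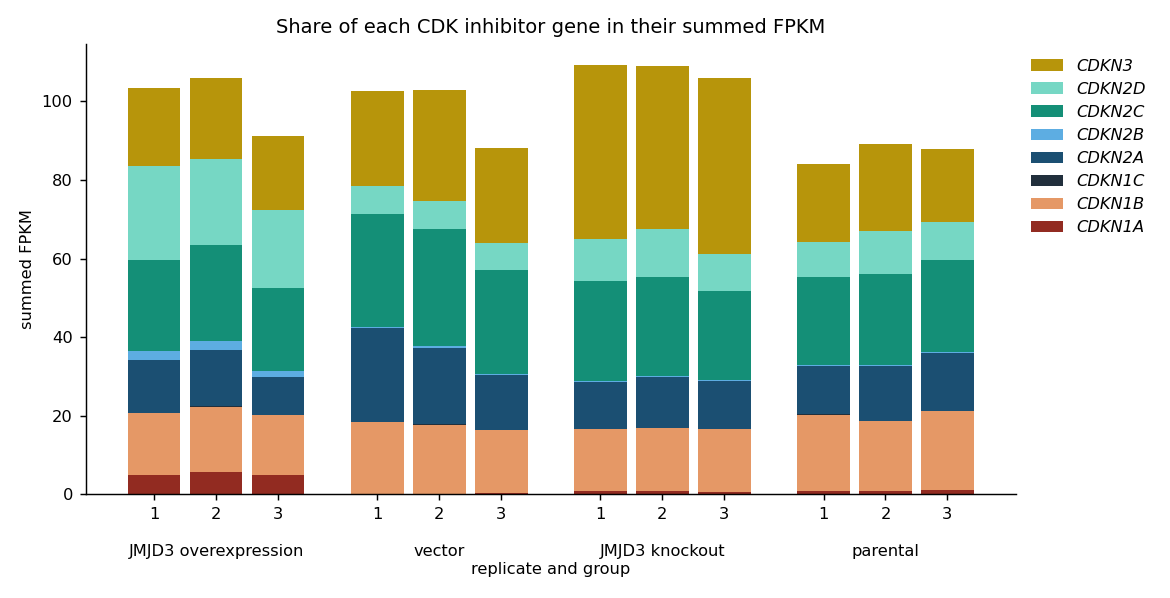
Summed FPKM (y axis) of the 8 CDK inhibitor genes in each of the 12 libraries, by replicate and group, with the contribution of each gene stacked. CDKN2D and CDKN1A take a larger share in overexpressing than in vector cells, and CDKN3 in knockout than in parental cells.

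The control groups of the pair of comparisons were not alike for all members. The tables were scaled apart, so these levels are a description, given as CPM by library total. CDKN1A was at 0.17 ± 0.18 CPM in vector cells and 1.74 ± 0.19 CPM in parental cells, 10.4-fold higher in parental, without overlap. Without vector replicate 3, left out after the values were seen, vector cells were at 0.066 CPM and parental cells 26.2-fold higher, so the size of this difference rests on that library. CDKN2D was at 5.99 ± 0.38 CPM in vector and 8.82 ± 0.87 CPM in parental cells, 1.47-fold higher in parental. CDKN2B was at 0.43 ± 0.054 CPM in vector and 0.50 ± 0.17 CPM in parental cells and overlapped. Set against parental cells, overexpressing cells had 5.64-fold the CDKN1A level, 8.57-fold that of CDKN2B and 2.35-fold that of CDKN2D, while CDKN2C (1.01-fold) and CDKN3 (1.04-fold) were nearly level. The size of the CDKN1A difference thus depended on its control, at 9.80 ± 0.68 CPM in overexpressing cells against either. CDKN2C was at 46.9 ± 3.82 CPM in vector and 39.8 ± 0.43 CPM in parental cells, without overlap. CDKN3 was at 13.8 ± 1.61 and 11.3 ± 1.55 CPM in the same order and overlapped. The slight falls of CDKN2C and CDKN3 on overexpression thus depended on the control as well.

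Other genes are most alike in pattern by Pearson r of log2 CPM over the 12 libraries, each table centred on its mean, among 13720 genes that passed the filter in both tables. The libraries fall into 4 groups, so r reflects the group means. It also reflects shifts within groups, such as that of replicate 3 in overexpressing and vector cells. How far each carried r was not tested, and r does not take in the size of a change. For CDKN1A the genes most alike were DCUN1D3 (r = 0.987), CYBB, a subunit of the phagocyte NADPH oxidase (0.984), and C10orf88 (0.984). For CDKN2B they were LINC00599 (0.991), CYP4F3 (0.989) and TNFAIP8L1 (0.986), and for CDKN2D the protease gene CTSB (0.992), CD300LF (0.990) and NCF1C (0.990), a near-identical copy of NCF1 whose reads are uncertain. For CDKN3 they were CAMK1 (0.979), the tubulin gene TUBB4B (0.978) and the serine protease gene PRSS57 (0.976). CDKN2A was closest to UNC93B1 (0.981), WIZ (0.981) and CEBPE (0.978), CDKN2C to SAPCD2 (0.982), SAC3D1 (0.980) and RBM15B (0.979), and CDKN1B to YAF2 (0.958), ALDH16A1 (0.944) and EPHB4 (0.943). Sizes of change differed: on overexpression DCUN1D3 was at 2.13 on the log2 scale, CYBB at 6.81 and C10orf88 at 0.50, against 5.56 for CDKN1A. In the knockout CAMK1 was at 0.66, TUBB4B at 0.70 and PRSS57 at 4.48, against 1.11 for CDKN3. The genes most like CDKN2A were picked from these same libraries, so their calls are not a separate result. WIZ and CEBPE were not called on overexpression (edgeR, adjusted p = 0.110 and 0.123), while UNC93B1 was (0.0358). In the knockout CEBPE was called lower (edgeR, adjusted p = 0.0217), and CDKN2A was not called. Among the members, CDKN1A went with CDKN2B (0.949) and CDKN2D (0.930) and ran against CDKN2C (-0.813), and CDKN2A went with CDKN2C (0.822).

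The kinases that the INK4 proteins bind were lower on overexpression. CDK6 was at 24.7 ± 4.68 CPM in overexpressing and 64.1 ± 7.13 CPM in vector cells (log2 fold change -1.37; edgeR, adjusted p = 0.000229), and CDK4 at 139 ± 5.52 and 242 ± 13.3 CPM in the same order (-0.80, adjusted p = 9.49e-05). CDK2, the partner of cyclins E and A, fell too (-0.70). Cyclin genes went both ways: CCND1 (1.05), CCND3 (0.78) and CCNE2 (0.85) rose. CCNA2 (-0.62), CCNB1 (-0.53) and CCNB2 (-0.44), named on overexpression after their values were seen, fell. CCND2 (-0.15) and CCNE1 (0.029) were not called. Of 15 cyclin and CDK genes tested, 3 rose and 7 fell, with a median log2 fold change of -0.15. Over all genes tested 26.4% rose and 23.9% fell on overexpression, and 17.6% rose and 20.2% fell in the knockout. Counts of this and the later lists in the reported fit are to be read against these shares. With the replicate block on overexpression the shares were 36.4% higher and 36.8% lower. In the knockout, 7 of 15 rose and 3 fell (median 0.10). CDK6 was at 85.5 ± 3.55 CPM in knockout and 44.6 ± 1.86 CPM in parental cells (0.94, adjusted p = 6.56e-10), CCNA2 (0.36), CCNB1 (0.36) and CCNE1 (0.31) and CCND3 (0.14) rose, CCND2 (-0.34) and CCND1 (-0.14) fell, and CDK4 (0.025) and CDK2 (-0.064) were not called.

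Downstream of these kinases stand the RB family and the E2F factors. On overexpression, 3 of 13 rose and 5 fell, with E2F8 at 0.78, E2F5 at -1.14, TFDP2 at -1.04 and TFDP1 at -0.44, and with RB1 (-0.00078) and E2F1 (-0.20) not called. The list's median was -0.20, and with the replicate block 8 fell, where 36.8% of all genes did. In the knockout 2 rose (E2F8, 0.32, and TFDP1, 0.21) and 3 fell, among them TFDP2 (-0.36) and E2F2 (-0.41), and RB1 (-0.0052) and E2F1 (0.056) were not called (median 0.0096).

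Among factors reported to act on CDK inhibitor genes, 10 of 27 rose and 5 fell on overexpression (median 0.092). EGR1 was at 122 ± 10.7 CPM in overexpressing and 3.95 ± 1.04 CPM in vector cells (4.97, adjusted p = 2.88e-06), ETS1 (2.54) and FOXO1 (2.14) rose, and ETS2 (-0.98) and MYC (-1.13) fell. MYC is known to hold down CDKN1A and CDKN2B. In the knockout 7 of 27 rose and 13 fell (median -0.11). CEBPA (1.12) and MYC (0.38) rose there, while EGR1 (-0.80), ETS1 (-0.68) and ID3 (-2.48) fell.

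The list of Polycomb and H3K27 demethylase genes joins opposite roles at the INK4 locus: Polycomb proteins are known to repress it, and KDM6A and KDM6B remove their mark. Over the whole list of 9, 4 rose and 2 fell on overexpression (median -0.034), and none rose and 5 fell in the knockout (median -0.21). Counted apart, which was done after the values were seen, 2 of the 7 Polycomb genes rose on overexpression, CBX7 (2.34) among them, and 2 fell, namely BMI1 (-0.99) and EZH2 (-0.65), with a median of -0.10. With the replicate block 4 of the 7 fell, where 36.8% of all genes did. In the knockout 3 of the 7 fell, among them BMI1 (-0.23) and RNF2 (-0.30), and the median was -0.11. Both demethylase genes rose on overexpression and both fell in the knockout, but KDM6B is itself the gene overexpressed and knocked out. KDM6A was at 0.41 on overexpression and -0.24 in the knockout. Genes that act in the turnover of p21 and p27 protein fell in 10 of 14 cases on overexpression and 1 rose. Of all genes tested 23.9% fell. With library totals alone 6 of the turnover genes fell and 2 rose, and with upper-quartile factors 7 fell and 1 rose. Over all 14322 genes the number that fell was smaller there too, at 2202 and 2660 in the same order, against 3421 in the reported fit. The median of that list was -0.33 on overexpression and 0.073 in the knockout. CUL1 (-0.62), DDB1 (-0.56), PCNA (-0.67), SKP1 (-0.39) and SKP2 (-0.30), the F-box protein for p27, were lower. In the knockout 3 of 14 rose (SKP1, 0.35, DDB1, 0.27, and PCNA, 0.23) and CUL4B fell (-0.23), with SKP2 (0.11) not called.

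**Figure D5:**
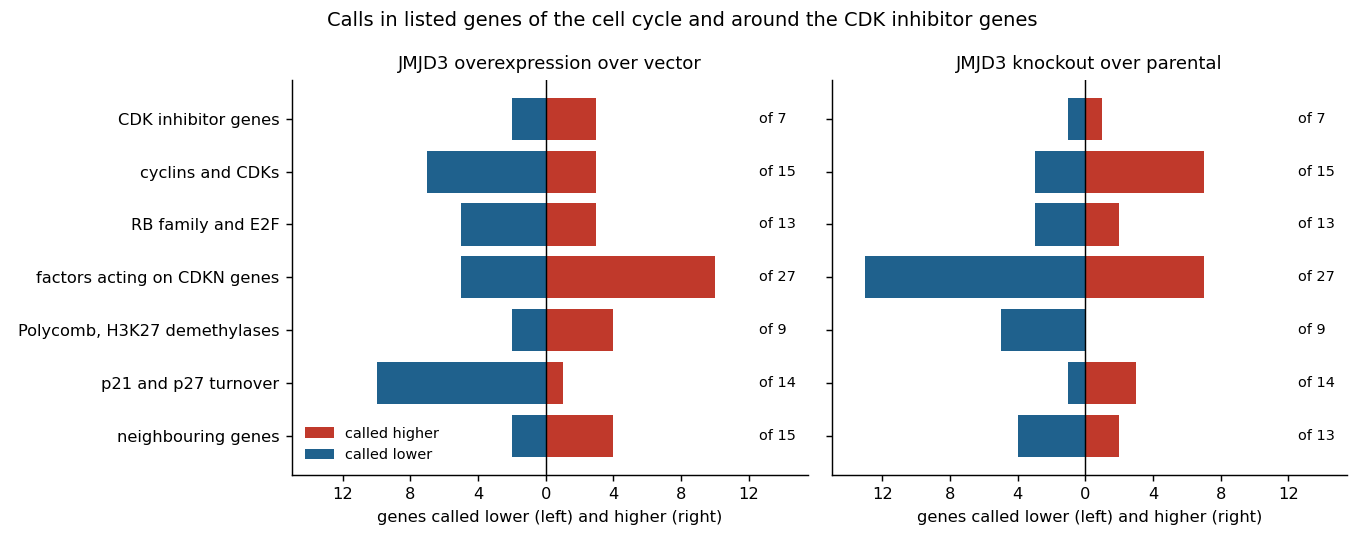
Number of genes called lower (left) and higher (right) at an adjusted p under 0.05 in each list, with the number tested, for JMJD3 overexpression over vector and JMJD3 knockout over parental. Of all genes tested 26.4% were called higher and 23.9% lower on overexpression, and 17.6% and 20.2% in the knockout. On overexpression 7 of 15 cyclin and CDK genes and 10 of 14 p21 and p27 turnover genes were called lower. With library totals alone 6 of 14 turnover genes were lower, where 2202 of 14322 genes were. With upper-quartile factors 7 were lower, where 2660 of all genes were. In the knockout 5 of 9 genes of the list of Polycomb and H3K27 demethylase genes were lower, among them KDM6A and KDM6B, the gene knocked out.

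Neighbours of the members did not all move with them. Beside CDKN2A and CDKN2B, the antisense gene CDKN2B-AS1 was at 0.66 ± 0.073 CPM in overexpressing and 0.93 ± 0.18 CPM in vector cells (-0.48, edgeR, adjusted p = 0.130), and MTAP was not called (-0.013, adjusted p = 0.943). CDKN2B-AS1 lies across the whole of CDKN2B on the other strand, as does AL359922.1, annotated as protein-coding. The TruSeq kit of the labels does not mark strand, so reads from stretches that transcripts of both strands hold cannot be told apart. The overlap was taken over whole genes, and that of exons was not worked out. Summed over libraries, CDKN2B-AS1 had 68 counts in overexpressing, 83 in vector, 79 in knockout and 125 in parental cells, and CDKN2B had 420, 42, 52 and 59 in the same order. The antisense gene thus had fewer counts than CDKN2B in overexpressing cells and more in the other groups. Its part in the CDKN2B values was not tested. Next to CDKN1A, SRSF3 fell (-0.54), and RAB44, 10471 bases away and named after its values were seen, rose (0.61). Beside CDKN1C, PHLDA2 was at 4.02 ± 1.12 CPM in overexpressing and 0.043 ± 0.011 CPM in vector cells (6.40, adjusted p = 2.67e-05), and SLC22A18 at 6.90 ± 1.14 and 1.19 ± 0.23 CPM in the same order (2.53, adjusted p = 5.22e-05), while KCNQ1OT1, a noncoding RNA of the same imprinted region, was not called (-0.28). In all, 4 of 15 neighbours tested rose and 2 fell (median -0.068), FAF1 beside CDKN2C being the other that fell (-0.50). Over all genes tested 26.4% rose and 23.9% fell, so the neighbours lay near or below these shares.

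In the knockout, 2 of 13 neighbours tested rose and 4 fell (median -0.11), where 17.6% of all genes rose and 20.2% fell. Beside CDKN3, CNIH1, 3342 bases away, fell (-0.21; edgeR, adjusted p = 0.00138) and GMFB rose (0.24, adjusted p = 0.000455). Beside CDKN1B, APOLD1 fell (-1.02, adjusted p = 0.00246), and beside CDKN2D, KRI1 fell (-0.19, adjusted p = 0.00300). CDKN2B-AS1 (-0.33), MTAP (-0.082) and KCNQ1OT1 (-0.11) were not called. SLC22A18, named after its values were seen, was at 1.09 ± 0.13 CPM in knockout and 1.87 ± 0.26 CPM in parental cells (-0.78, adjusted p = 0.0114).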

How the data were processed

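Sequencing of RNA from 12 HL-60 libraries was analysed, grouped by sample title. Per the labels, RNA was taken with Trizol and made into unstranded Illumina TruSeq libraries. The submitters' processing notes list RSEM, edgeR, TopHat2 2.0.4, CASAVA 1.8 and build GRCh38, while the design text speaks of BWA with ANOVA and of Cufflinks. The sources used here do not say which of them made which column. The 2 tables deposited, 1 for each comparison, hold a count and an FPKM per library, and, per the file headers, each gene's log2 fold change, p-value and adjusted value. The deposited count columns are expected counts times a factor per library (0.772 to 1.197, recovered from the values): after division, 92.9% to 94.1% came out whole to within 0.02 among values up to 1000. They were divided by that factor and rounded, and 13 lines without values were left out.

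Either comparison was fitted on the 6 libraries of its table with edgeR 4.0.16 in R 4.3.3 (TMM, default filter, robust quasi-likelihood test, Benjamini-Hochberg adjustment over all genes tested, adjusted p under 0.05). Standard errors are the log2 fold change over the root of the F statistic. Alternatives used DESeq2 1.42.0 and limma 3.58.1, the last on log2(FPKM + 1) and log2(FPKM + 0.1) for genes of mean FPKM 0.1 or more. The fit was tested on simulated data with known changes, where the share of false genes among those called was above the nominal threshold in both designs. Far fewer genes were changed there than were called here, and no shift of replicate 3 was built in. The false share among the calls reported here is therefore not known from it. Positions come from GENCODE 29 and promoter windows from RefSeq. The deposited log2 fold change is quoted only for CDKN2A on overexpression and KDM6B in the knockout. Total counts set the precision: a gene near 10 counts per library is known only roughly.

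All members and KDM6B are named. Of other lists the genes named are up to 4 called ones with the smallest p in each comparison, MYC, CDK4, CDK6, CCND1, CCND2, CCND3, CCNE1, CDK2, RB1, E2F1, SKP2, MTAP, CDKN2B-AS1 and KCNQ1OT1. Genes marked as named after their values were seen come on top of these. 1 gene list is not reported here. The members and lists were chosen with earlier results of these data known. Replicate numbers come from the titles. Across genes, the deviations of same-numbered libraries from their group means correlated at 0.199, 0.238 and 0.553 in the overexpression comparison, each over 0.1, the criterion for pairing. The reported fit nonetheless used no block, and the replicate number was a block only in an alternative. The values themselves set replicate 3 apart from replicates 1 and 2 and do not pair these by number, since overexpression replicate 1 correlated with vector replicate 2 at 0.255 and overexpression replicate 2 with vector replicate 1 at 0.203.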

Additional observations from a re-analysis of the deposited data

How the results depend on the processing

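The calls of CDKN1A, CDKN2B and CDKN2D on overexpression and of CDKN3 and CDKN1B in the knockout kept their direction and their side of the threshold under every alternative run. The count of members called lower on overexpression was least settled: 2 in the reported fit, 0 with upper-quartile factors, library totals alone or replicates 1 and 2 summed, 4 with replicates 1 and 2 only, and 0 to 3 with a library left out. With the replicate block 4 members were lower, since CDKN1B and CDKN2A were added, and no other member's call changed. Over all genes called, this block gave 10489 in place of 7207, with 5274 in place of 3421 lower. Library totals alone gave 2202 lower against 4788 higher and moved the median gene by 0.14 on the log2 scale, and upper-quartile factors gave 2660 and 4389. Summing replicates 1 and 2 gave 4351 called and 1689 lower.

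In the knockout comparison same-numbered libraries correlated at 0.036, -0.12 and -0.069, so the numbers did not pair them. A replicate block there gave 4597 calls in place of 5357 and changed no member's call. Without the filter 2 members were called lower (CDKN1C added), and with a library left out 1 to 2 were called higher. Limma gave 2686 calls on log2(FPKM + 1), 1407 higher and 1279 lower, and 2783 on log2(FPKM + 0.1), 1461 higher and 1322 lower. The signs that turned were those of CDKN1B on overexpression with library totals (0.0061) and of CDKN2B in the knockout on FPKM (-0.034 and -0.081 with pseudocounts of 1 and 0.1), none of them called. The causes were not tested. List counts under the block, other scalings and replicates 1 and 2 only were added after seeing the data. With the block on overexpression, 4 Polycomb genes in place of 2 and 5 neighbours in place of 2 were lower. Over all genes 36.8% were lower with the block, in place of 23.9%. No called list gene changed sign under the block, the other scalings or replicates 1 and 2 only. At a few counts per library CDKN1C and, in the knockout table, CDKN2B are limited by depth.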
